A study of Mus musculus with 6 samples.

Results

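Expression of 9 keratin genes of stressed, hillock and suprabasal epithelium was examined in cultured mouse airway basal cells: Krt6a, Krt6b, Krt16, Krt4, Krt13, Krt1, Krt10, Krt80 and Krt78. They were taken by gene symbol, and all 9 were found among the 56748 genes of the deposited expression table, which holds 55 keratin genes in all. RNA had been sequenced from primary airway basal stem cells of wild-type (WT) mouse trachea after 4 days of culture. In 3 libraries the cells were cultured with UK-5099, which blocks the import of pyruvate into mitochondria. In the other 3 the medium held Y-27632, a protein kinase inhibitor, with A8301 and DMH-1, which block TGF-beta and BMP type I receptors and are together known as dual SMAD inhibition. The labels state neither the strain, sex and age of the mice, nor doses, nor whether the UK-5099 cultures held any of the 3 inhibitors. No untreated cells were among the samples, so a value that is higher in one group is equally one that is lower in the other. Whether each replicate was its own animal or culture is not in the labels, so the p-values measure the spread between these libraries, which may be technical.

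Keratins are the intermediate filament proteins of epithelia, and their filaments are built from pairs of a type I and a type II chain. Krt5 (type II) and Krt14 (type I) form the filaments of basal layers, including that of the airway. Krt6a, Krt6b (type II) and Krt16 (type I) are induced in wounded, stressed and hyperproliferative stratified epithelium. Krt4 (type II) and Krt13 (type I) are the pair of the suprabasal cells of mucosal stratified epithelia, and in the airway they mark hillocks, patches of stratified squamous-like cells. Krt1 (type II) and Krt10 (type I) replace the basal pair in cells that leave the basal layer of the epidermis. Krt80 and Krt78 are type II chains of differentiating epithelium that are less well studied.

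The stress keratins, Krt13 and Krt78 stood several-fold higher with UK-5099, and the other 4 keratins did not. Krt16 was 18.4-fold, Krt6b 11.2-fold, Krt6a 5.58-fold, Krt78 4.37-fold and Krt13 4.36-fold higher. Krt4, the partner of Krt13, differed by 1.16-fold, Krt80 was 1.77-fold lower, Krt10 did not pass the test, and Krt1 was at the floor in both groups. With limma and a Benjamini-Hochberg adjusted p under 0.05, 6 of the 9 keratins were higher with UK-5099 and 1 was lower, where 27.2% of the 15704 genes tested were higher and 26.6% lower, 53.8% in either direction. The share of calls that were higher was 50.6% over all genes, and 39.1% when each library was centred on its median. A level at least 2-fold higher with UK-5099 was called for 5 of the 9, against 4.67% of the genes tested, and these 5 also exceeded 4-fold, against 1.01%. Krt1 was the keratin that missed the minimum mean of 10 normalized counts, and each of the other 8 exceeded it in both groups. The median log2 fold change of those 8 was 2.13, beside -0.00049 over all genes tested. A normalized count is a read count scaled by the authors for the depth of its library, and a log2 fold change is the UK-5099 mean less the 3-inhibitor mean of log2(normalized count + 1).

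**Figure D1:**
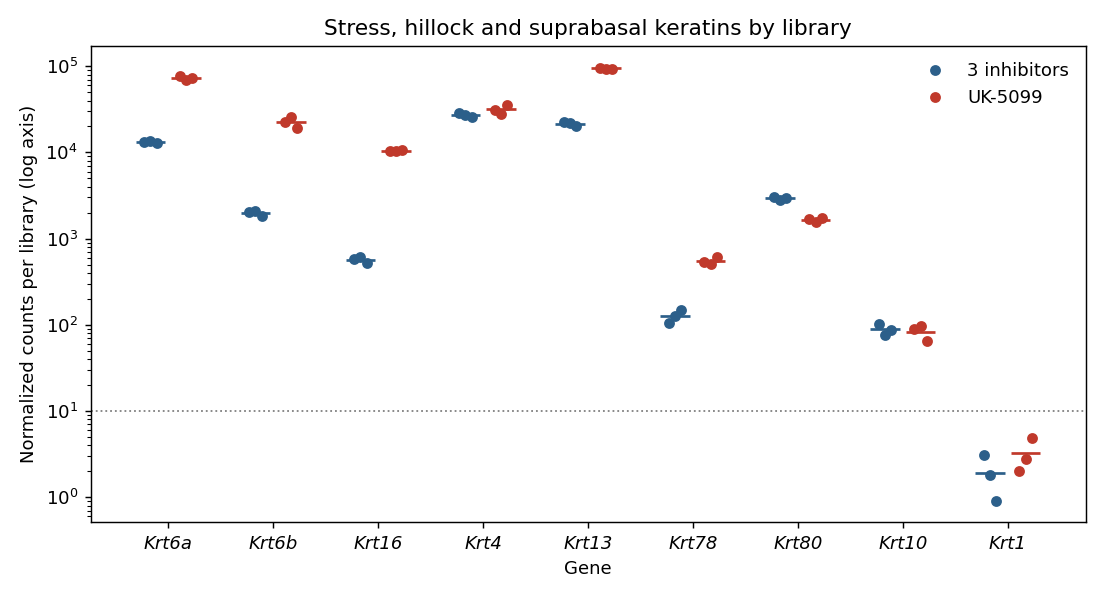
Normalized counts of the 9 keratins (log axis) in each library, with 3 points and a bar at the mean for each group and a dotted line at the minimum mean of 10. Krt16, Krt6b, Krt6a, Krt13 and Krt78 lie higher in every UK-5099 library than in any 3-inhibitor library, Krt80 lies lower, and the groups overlap for Krt4, Krt10 and Krt1.

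Sequencing depth and cell identity can be summarised briefly. Recovered gene reads ran from 19909589 to 27037796 a library. All 10 listed airway basal genes passed the filter, with 7 called higher and 2 called lower under UK-5099 (7 and 3 with median centring), and their summed level was 294154 to 315411 normalized counts under UK-5099 and 158962 to 173637 under the 3 inhibitors. The lower genes were Ngfr, which encodes a surface receptor of basal cells, 4.59-fold lower, and Aqp3, 1.35-fold lower. Krt5, Krt14 and Krt15 made up 79.6% to 81.3% of that sum under UK-5099 and 64.7% to 65.6% under the 3 inhibitors, and they belong both to that list and to the other keratins below. Secretory cell genes summed to 6814 to 8583 with UK-5099 and 46162 to 48739 with the 3 inhibitors. Most of each sum was Cbr2, at 5694 to 6845 with UK-5099 and 41531 to 43733 with the 3 inhibitors. Of the 8 genes, 4 were tested and called lower, of which Muc5b reached the minimum mean only through the 3-inhibitor group. Bpifb1 was at 0 in every library. Multiciliated cell genes summed to 79.8 to 90.4 and 47.4 to 84.04 normalized counts, with Dynlrb2 at 0. None of the 6 fibroblast genes passed the filter, and Col1a2, Col3a1 and Lum were at 0, with sums of 6.50 to 14.6 and 8.25 to 10.05. The chondrocyte list summed to 33.5 to 35.3 with UK-5099 and 15.5 to 24.1 with the 3 inhibitors, the endothelial list to 6.09 to 9.28 and 33.8 to 50.5, with Cdh5 at 0, and the leukocyte list to 494.6 to 700.3 and 507.6 to 532.9, with Tyrobp at 0 and nearly all of it from Cd68. Of the lists of genes from other cell types, the secretory list moved most in absolute level alongside the keratins, mainly through Cbr2. Its part in their differences was not tested. In bulk RNA, fewer cells of a type and less RNA per cell cannot be told apart. Xist was 1.70-fold higher with UK-5099, and the Y-linked Ddx3y, Eif2s3y, Kdm5d and Uty were lower, from 1.52-fold to 2.15-fold. This difference in sex-linked RNA ran alongside all the keratin results, and its part in them was not tested.

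Krt16 (ENSMUSG00000053797), the type I chain of the stress set, showed the largest difference of the 9. It stood at 10456, 10276 and 10665 normalized counts in UK-5099 replicates 1, 2 and 3, and at 577.2, 610.4 and 517.1 in 3-inhibitor replicates 1, 2 and 3. Every UK-5099 library was far above every 3-inhibitor library, and the replicates of a group lay close together. The log2 fold change was 4.20 ± 0.06 (SE, n = 3 libraries a group; limma, adjusted p = 1.87e-12), which ranked 12 from the highest of 15704. The groups did not overlap for 6 of the 9 keratins, as for 60.8% of the genes tested.

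Krt6a (ENSMUSG00000058354), the more abundant of the type II stress chains, stood at 77874, 69264 and 73492 normalized counts with UK-5099 and at 13127, 13598 and 12768 with the 3 inhibitors. Its log2 fold change was 2.48 ± 0.05 (SE, n = 3; limma, adjusted p = 4.61e-11). Krt6b (ENSMUSG00000023041) stood at 22529, 25542 and 19063 with UK-5099 and at 2053, 2107 and 1810 with the 3 inhibitors, a log2 fold change of 3.48 ± 0.09 (adjusted p = 1.44e-10). Neither gene overlapped between the groups. Krt6b made up 23.3 ± 3.26% of the counts of the Krt6 pair in the UK-5099 libraries and 13.1 ± 0.61% in the 3-inhibitor libraries (n = 3, SD; p = 0.1 by a two-sided exact permutation test, and 3 against 3 allow no smaller p).

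The split between Krt6a and Krt6b rests on how reads were assigned, since the genes are near copies. In the GENCODE M21 transcripts (build GRCm38), the longest stretch identical in both coding sequences was 280 bases long, from base 34 to base 313 counted from the start codon of either gene. It is shown because reads lying wholly inside it could have come from either gene:
Krt6a and Krt6b: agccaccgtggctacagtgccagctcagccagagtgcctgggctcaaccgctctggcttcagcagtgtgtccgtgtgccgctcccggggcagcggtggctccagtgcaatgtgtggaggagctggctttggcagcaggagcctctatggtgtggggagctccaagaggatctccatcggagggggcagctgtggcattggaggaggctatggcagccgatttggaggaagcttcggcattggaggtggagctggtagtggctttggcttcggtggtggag
Of the 100-base windows of the Krt6a transcript, 29.5% also occurred in a Krt6b transcript, and 34.0% occurred in a transcript of some other gene. For Krt6b the share found in any other gene was 30.6%. Another gene that shares such windows, Gm5478, stood at 2198, 1181 and 589.5 normalized counts with UK-5099 and at 159.8, 392.3 and 257.6 with the 3 inhibitors. The sum of Krt6a and Krt6b does not depend on the split between them, though it still depends on reads shared with other genes, and its log2 value was 16.55 ± 0.06 under UK-5099 and 13.89 ± 0.05 under the 3 inhibitors (SD, n = 3), a difference of 2.66.

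Krt16 has the same limit to a lesser degree. Of the 100-base windows of its transcript, 24.3% also occurred in another gene, most of them in Gm11597, which GENCODE lists as an unprocessed pseudogene, and the rest in Krt14. Gm11597 itself held 1586 ± 67.9 normalized counts in the UK-5099 libraries and 46.2 ± 38.9 in the others (SD, n = 3), a 41.4-fold difference that became 64.1-fold without 3-inhibitor replicate 2. How many reads passed between them was not tested. Krt4, Krt13, Krt1, Krt10, Krt80 and Krt78 shared no 100-base and no 50-base window with another gene, so their counts are free of this doubt as far as those transcripts go.

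Krt13 (ENSMUSG00000044041), the type I hillock chain, had the highest mean per kilobase of the 9 in both groups, although with the 3 inhibitors its libraries overlapped those of Krt4. Its libraries stood at 96379, 93783 and 92523 normalized counts with UK-5099 and at 22514, 21880 and 20469 with the 3 inhibitors, without overlap. The log2 fold change was 2.12 ± 0.05 (SE, n = 3; limma, adjusted p = 6.38e-11).

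Krt4 (ENSMUSG00000059668), with which Krt13 pairs, behaved otherwise. It stood at 31386, 28156 and 35523 normalized counts with UK-5099 and at 28618, 27161 and 25720 with the 3 inhibitors. UK-5099 replicate 2 lay below 3-inhibitor replicate 1, so the groups overlapped. The log2 fold change was 0.22 ± 0.07 (SE, n = 3; limma, adjusted p = 0.0284). This call was lost without UK-5099 replicate 1 (adjusted p = 0.0790), 3-inhibitor replicate 2 (adjusted p = 0.0800) or 3-inhibitor replicate 3 (adjusted p = 0.114) and with median centring (log2 fold change 0.13, adjusted p = 0.168), in a range from 0.00148 to 0.168 over 14 alternatives.

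Within each library, the log2 ratio of Krt4 to Krt13 was -1.62, -1.74 and -1.38 in UK-5099 replicates 1, 2 and 3 and 0.35, 0.31 and 0.33 in 3-inhibitor replicates 1, 2 and 3. The ratio was above 0 in each 3-inhibitor library and below 0 in each UK-5099 library; it is not corrected for transcript length, which cancels in the difference between groups. The mean ratio was -1.58 ± 0.18 under UK-5099 and 0.33 ± 0.02 under the 3 inhibitors (SD, n = 3), a difference of -1.91, or 3.75-fold. This was 1 of 4 such comparisons of ratios and shares (p = 0.1 by the exact permutation test, and 0.133 after Benjamini-Hochberg adjustment over the 4), and none of the 4 could pass the threshold at 3 against 3.

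The ratio of Krt6a and Krt6b together to Krt16 also differed between the groups. Its log2 value was 3.26, 3.21 and 3.12 with UK-5099 and 4.71, 4.68 and 4.81 with the 3 inhibitors, with no overlap. The difference was -1.54, or 2.91-fold, the type I chain having differed more than the sum of the type II chains (exact permutation test, p = 0.1, adjusted p = 0.133).

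**Figure D2:**
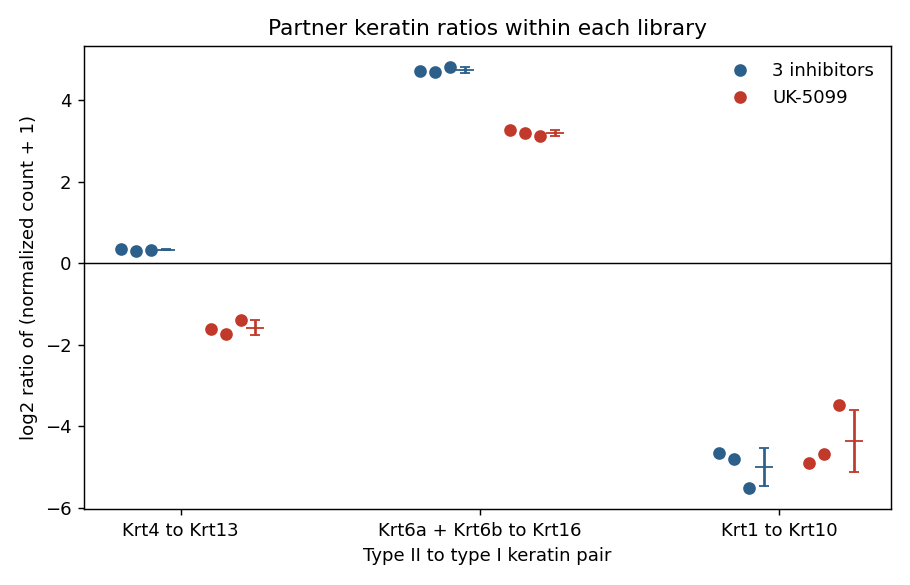
Log2 ratio of the type II to the type I keratin of 3 pairs within each library, as points, with the mean and SD of each group beside them. The Krt4 to Krt13 ratio changes sign between the groups, the Krt6a plus Krt6b to Krt16 ratio is lower in all UK-5099 libraries, and the Krt1 to Krt10 ratio, which rests on 1 to 4 Krt1 reads a library, overlaps.

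The epidermal pair was barely present. Krt1 (ENSMUSG00000046834) had 2, 3 and 4 recovered reads in the UK-5099 libraries and 3, 2 and 1 in the 3-inhibitor libraries, which is at the level of a few reads and gives no usable fold. Krt10 (ENSMUSG00000019761) stood at 89.4, 96.5 and 64.5 normalized counts with UK-5099 and at 103.1, 76.9 and 86.8 with the 3 inhibitors, and the groups overlapped. Its log2 fold change was -0.10 ± 0.19 (SE, n = 3; limma, adjusted p = 0.682). The log2 ratio of Krt1 to Krt10 rests on those few reads and on the pseudocount: its difference between the groups was 0.64 with a pseudocount of 1, 0.75 with 0.5 and 0.34 with 5 (exact permutation test, p = 0.5 for each), so no direction is read from it.

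The remaining type II chains went in opposite directions. Krt78 (ENSMUSG00000050463) stood at 534.4, 506.7 and 613.8 normalized counts with UK-5099 and at 104.1, 125.1 and 149.8 with the 3 inhibitors, a log2 fold change of 2.13 ± 0.13 (SE, n = 3; limma, adjusted p = 1.25e-07). Krt80 (ENSMUSG00000037185) stood at 1696, 1558 and 1738 with UK-5099 and at 3042, 2810 and 2966 with the 3 inhibitors, a log2 fold change of -0.82 ± 0.05 (adjusted p = 1.84e-07). Neither overlapped between the groups, and Krt80 was the 1 keratin of the 9 that was lower with UK-5099.

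Promoter sequences from RefSeq (build GRCm38.p6) were held for 3 of the 9: Krt13, Krt78 and Krt10. They are shown because Krt13 and Krt78 had nearly the same log2 fold change (2.12 and 2.13), whereas Krt10 had none that passed the test. Each is the 250 bases before an annotated start, of which Krt13 has 2, written 5′ to 3′ on the gene's own strand, which is the minus strand for all 3. The Krt13 windows lie at chr11:100121567-100121816 (start 1) and chr11:100120578-100120827 (start 2), that of Krt78 at chr15:101954288-101954537 and that of Krt10 at chr11:99389365-99389614. Capitals mark motif matches on either strand, and no marked matches overlapped. The motifs were TGANTCA (a loose form of the AP-1 site), TGACNNNGC (the antioxidant response element), CACCC (bound by KLF and SP factors) and TATAAA (the TATA box).
Krt13, start 1: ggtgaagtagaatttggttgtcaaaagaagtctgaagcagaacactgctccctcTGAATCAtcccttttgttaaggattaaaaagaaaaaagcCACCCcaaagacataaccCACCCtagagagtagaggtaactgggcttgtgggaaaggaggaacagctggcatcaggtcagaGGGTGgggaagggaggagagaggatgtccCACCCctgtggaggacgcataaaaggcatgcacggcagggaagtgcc
Krt13, start 2: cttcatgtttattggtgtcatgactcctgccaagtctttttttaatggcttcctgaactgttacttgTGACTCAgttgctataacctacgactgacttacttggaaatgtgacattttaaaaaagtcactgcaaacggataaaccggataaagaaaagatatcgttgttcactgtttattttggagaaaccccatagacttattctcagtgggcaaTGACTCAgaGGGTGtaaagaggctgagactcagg
Krt78: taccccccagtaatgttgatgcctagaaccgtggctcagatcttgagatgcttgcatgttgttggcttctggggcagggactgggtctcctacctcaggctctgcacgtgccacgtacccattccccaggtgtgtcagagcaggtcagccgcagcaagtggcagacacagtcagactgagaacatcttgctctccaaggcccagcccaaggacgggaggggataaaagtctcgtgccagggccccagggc
Krt10: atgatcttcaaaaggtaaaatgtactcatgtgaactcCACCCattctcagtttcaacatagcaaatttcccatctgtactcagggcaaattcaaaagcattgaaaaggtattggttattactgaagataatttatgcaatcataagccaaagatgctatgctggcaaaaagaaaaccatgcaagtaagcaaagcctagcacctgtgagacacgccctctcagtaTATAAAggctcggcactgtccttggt
The window of Krt13 start 1 held 1 TGANTCA match, TGAATCA, from -196 to -190 (in bases from the start, where -1 is the base just before it). It also held 4 CACCC matches, of which the nearest ended at -43. The window of start 2 held 2 TGANTCA matches, both TGACTCA, from -183 to -177 and from -34 to -28, and 1 CACCC match. Which start was used was not tested. Krt78 held no match to any of these motifs, and Krt10 held 1 CACCC and a TATAAA from -26 to -21. TGANTCA occurred in 6.75% of the 32851 promoter windows of that length, CACCC in 52.0%, TATAAA in 12.4% and TGACNNNGC in 10.2%. A match describes the letters and is not evidence that a factor binds there.

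Levels of different keratins can be compared per kilobase of transcript, here with the longest coding transcript of each gene in GENCODE M21. With UK-5099 the order of normalized counts per kilobase was Krt13 (56970 ± 1189), Krt6a (32284 ± 1890), Krt4 (14856 ± 1731), Krt6b (10012 ± 1451), Krt16 (6687 ± 124), Krt80 (424.6 ± 24.0), Krt78 (160.5 ± 16.2), Krt10 (39.9 ± 8.02) and Krt1 (1.32 ± 0.60; SD, n = 3). No neighbours in that order overlapped between libraries. With the 3 inhibitors the order began with Krt13 (13072 ± 633) and Krt4 (12736 ± 679), whose libraries overlapped, followed by Krt6a (5779 ± 183), Krt6b (890.4 ± 70.9), Krt80 (750.1 ± 30.1) and Krt16 (363.1 ± 30.2). Krt10 (42.5 ± 6.32) and Krt78 (36.8 ± 6.66) came next and overlapped, and Krt1 (0.79 ± 0.45) was last. Krt16 stood above Krt80 with UK-5099 and below it with the 3 inhibitors.

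The keratin family as a whole took up more of the RNA with UK-5099. All keratin genes held 2.64 ± 0.08% of the normalized counts under UK-5099 and 1.32 ± 0.03% under the 3 inhibitors (n = 3, SD; p = 0.1 by the exact permutation test). Of these keratin counts, the 9 held 36.5%, 37.0% and 37.1% in UK-5099 replicates 1, 2 and 3 and 21.3%, 21.3% and 21.0% in 3-inhibitor replicates 1, 2 and 3, a difference of 15.6 percentage points (exact permutation test, p = 0.1, adjusted p = 0.133). With Krt5 and Krt14 taken out of the keratin total, the difference was 27.1 points. Krt6a, Krt6b and Krt16 held 16.7 ± 0.30% against 4.93 ± 0.16%, and Krt4 with Krt13 held 19.8 ± 0.49% against 15.3 ± 0.22%. The basal layer keratins Krt5, Krt14, Krt15 and Krt17 held 45.7 ± 1.10% against 38.5 ± 0.53%. The simple epithelial keratins Krt7, Krt8, Krt18 and Krt19, which line single-layered epithelia and secretory cells, held 16.9 ± 0.84% against 39.7 ± 0.56%.

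**Figure D3:**
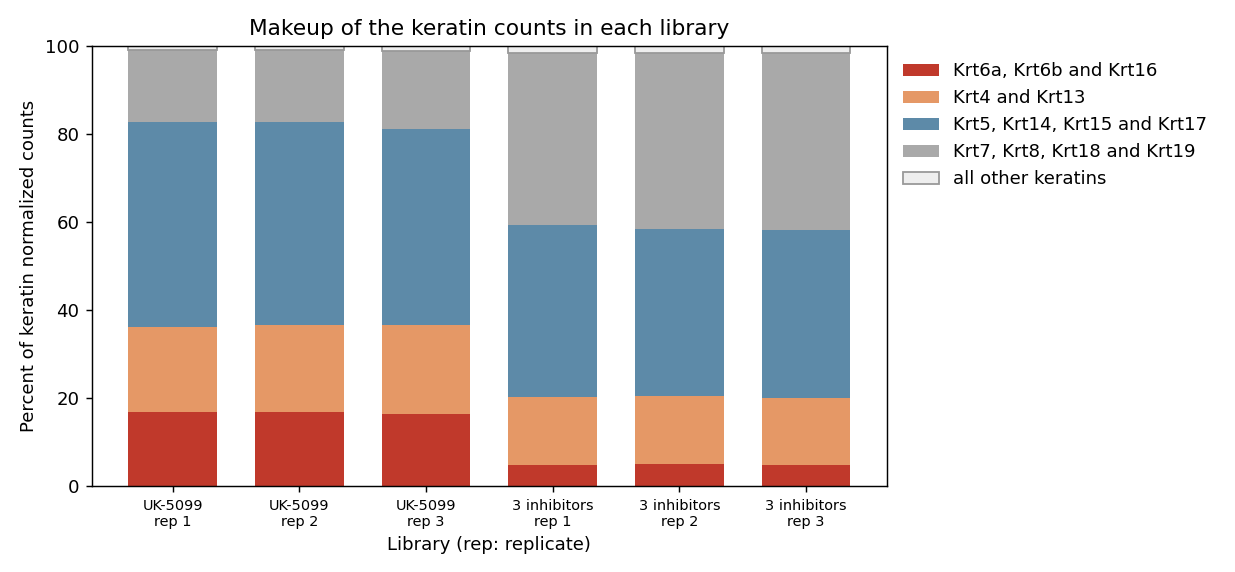
Percent of each library's keratin normalized counts held by 4 groups of keratins and by all others, as stacked bars from 0 to 100. The stress keratins Krt6a, Krt6b and Krt16 hold 16.7% on average with UK-5099 and 4.93% with the 3 inhibitors, and the simple keratins 16.9% and 39.7%. The keratin total behind these shares was larger with UK-5099.

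Among the 46 other keratin genes, 16 were tested, with 7 higher, 5 lower and 4 short of the threshold. Of the type I chains, Krt14 was 5.66-fold, Krt17 3.26-fold and Krt20 2.53-fold higher, and Krt18, the partner of Krt8 in simple epithelium, was 1.75-fold lower. Krt23 and Krt39 were also higher (log2 fold changes 1.44 and 1.38). Krt15 and Krt19, abundant type I chains of this epithelium, did not pass the test, at log2 fold changes of -0.07 and -0.01; with median centring 2 type I chains, not 1, were lower. Of the type II chains, Krt5 was 3.01-fold and Krt90 5.89-fold higher. Krt8 and Krt87 were 1.79-fold and 3.11-fold lower, and Krt7 had a log2 fold change of -0.37. The pseudogene Krt8-ps, which can share reads with Krt8, was lower as well (-0.98). Krt16 and Krt6b thus had larger log2 fold changes than any other keratin tested, and that of Krt6a was close to that of the basal keratin Krt14 (2.48 and 2.50).

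**Figure D4:**
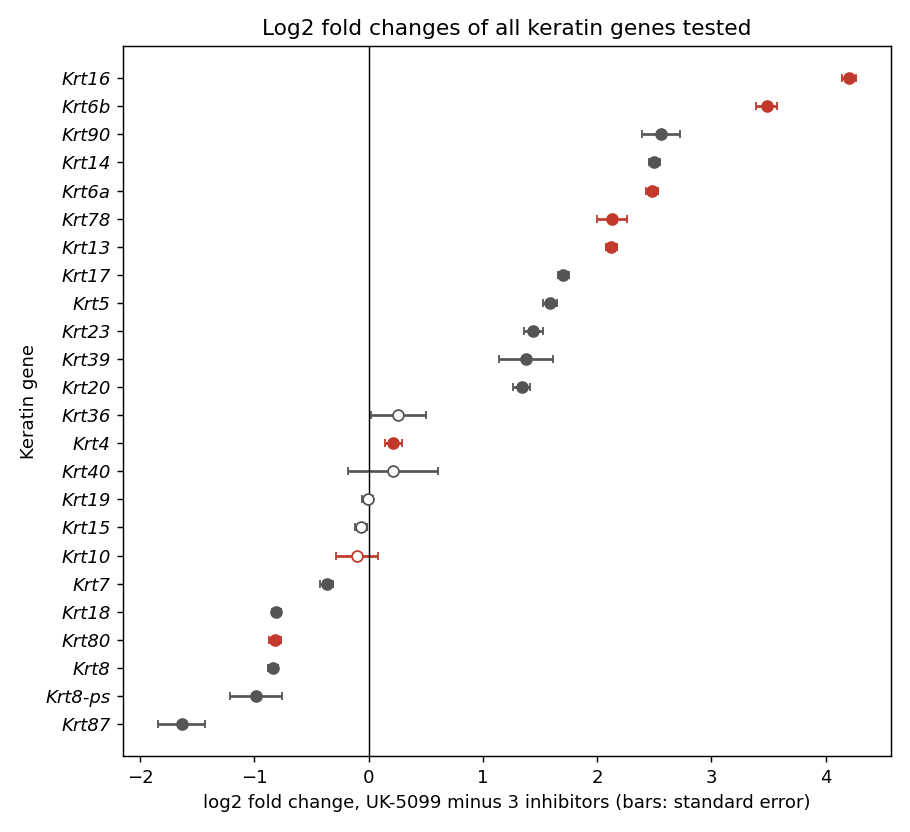
Log2 fold changes with standard errors of the 24 keratin genes tested, with the stress, hillock and suprabasal keratins in red, other keratins in grey and open points for those that did not pass the test. Krt16 (4.20) and Krt6b (3.48) lie highest, Krt87 (-1.63) lowest, and Krt4 (0.22) and Krt10 (-0.10) near 0.

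Of 5 other hillock genes listed, 3 were higher and 2 lower. Cldn3, a claudin gene, was 4.02-fold lower with UK-5099 (normalized counts of 598.6 ± 7.10 and 2411 ± 81.8, SD, n = 3; limma, adjusted p = 7.49e-11) and the lectin gene Lgals3 1.63-fold lower. The calcium-binding protein gene S100a11 was 1.27-fold higher, and Ecm1 and Anxa1 had log2 fold changes of 0.28 and 0.14. With median centring 1 of the 5 was higher and 2 lower. Both Ecm1 and Anxa1 lost their calls there, with highest adjusted p of 0.0687 and 0.365 over the alternatives, and Anxa1 also on leaving out replicate 1 or 2 of UK-5099, or any replicate of the 3 inhibitors. The median of the list was 0.14.

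Genes of the cornified envelope, the cross-linked protein shell of squamous cells, and other suprabasal genes were mostly higher with UK-5099, like the stress keratins and Krt13. Of 30 listed, 27 were tested. Of the 27, 6 (Sprr2d, Sprr2h, Tgm3, Krtdap, Dsg1a and Dsc1) reached the minimum mean only through the UK-5099 group and so had to differ. Of the other 21, 19 were higher and 1 lower. Dmkn was 7.62-fold, Cnfn 5.98-fold, Sprr3 6.12-fold and Sprr2a3 10.8-fold higher; Sprr2 genes have near-identical copies, so their levels are uncertain. Lor, which encodes the envelope protein loricrin of the epidermis, was the 1 lower (1.82-fold). Other genes known from the epidermis that exceeded the minimum mean in both groups were mostly higher. Ivl was 5.11-fold, Csta1 3.45-fold and Tgm1 3.32-fold higher. The desmosomal cadherin gene Dsg1b was 32.6-fold higher, from a 3-inhibitor mean of 11.2 normalized counts, and Cdsn was 2.94-fold higher. Flg did not pass the test, at means of 15.7 with UK-5099 and 12.7 with the 3 inhibitors (limma, adjusted p = 0.829). Krtdap, Dsg1a, Tgm3 and Dsc1 are among the 6 that had to differ, so their folds are not read here. Crct1, another gene of squamous differentiation, was 7.82-fold higher. Crnn and Pax9, which with Crct1 made up a list of oesophageal squamous genes, did not pass the test, at log2 fold changes of -0.01 and -0.09. That list summed to 1765 to 1917 normalized counts with UK-5099 and 1345 to 1450 with the 3 inhibitors. Of 4 genes of tracheal identity, the transcription factor genes Nkx2-1 and Foxa1 were 1.45-fold and 1.89-fold lower, Sox2 had a log2 fold change of 0.07 and did not pass the test, and Foxa2 was below the filter.

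Keratin filaments are anchored at desmosomes and hemidesmosomes by plaque and linker proteins. Of 10 such genes, 9 were higher and 1 lower, none by 2-fold, with a median log2 fold change of 0.33. With median centring 5 were higher and 1 lower. Pkp1, a plakophilin of stratified epithelium, was 1.79-fold higher, Evpl 1.60-fold and Dsp, which encodes desmoplakin, 1.44-fold higher. Pkp2, the plakophilin of simple epithelium and heart, was 1.97-fold lower.

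Transcription factors known for squamous and epidermal genes were mixed. Of 20 tested of 21 listed, 8 were higher and 4 lower (6 and 7 with median centring), with a median log2 fold change of 0.06. Zfp750, a factor of terminal epidermal differentiation, was 2.49-fold higher (normalized counts of 1093 ± 63.2 and 437.9 ± 20.7, SD, n = 3), Barx2 1.95-fold and Trp63, the master factor of basal cells, 1.70-fold higher. Klf3 was 1.56-fold lower, and Klf4, Nfe2l2 (the factor of the antioxidant response element) and Ovol2 had log2 fold changes of -0.27, -0.26 and -0.52. Grhl3 did not pass the test (-0.01). Of 8 tested genes of AP-1, the dimeric factor whose site TGANTCA loosely describes, 5 were lower and 1 higher (5 and 0 with median centring), with a median of -0.52. Jund was 1.87-fold, Atf3 1.59-fold, Fosl2 1.41-fold and Jun 1.73-fold lower, while Fos had a log2 fold change of 0.51. The call of Fos was lost with median centring and on leaving out replicate 1 or 3 of UK-5099, or replicate 1 or 2 of the 3 inhibitors (adjusted p from 0.00194 to 0.103), and that of Junb, the other lower gene, in 8 settings (adjusted p from 0.00272 to 0.182).

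Genes of the wound and alarm response, in which Krt6 and Krt16 are known to take part, did not all follow them. Of 13 tested of 20 listed, 7 were higher and 3 lower (7 and 4 with median centring), with a median log2 fold change of 0.51. The growth factor genes Areg and Epgn were 3.61-fold and 6.12-fold higher, the cytokine gene Il36g 5.14-fold higher, and the interleukin 1 receptor antagonist gene Il1rn 1.58-fold higher. Going the other way, Plaur, the urokinase receptor gene, was 1.71-fold lower, and the growth factor gene Tgfa 1.37-fold lower. Egfr, which encodes the receptor of Areg and Epgn, had a log2 fold change of 0.12 and did not pass the test (adjusted p = 0.0786). The alarm genes S100a8 and S100a9 were near the floor, with mean normalized counts of 4.10 and 14.8 in UK-5099 libraries and of 0.69 and 1.89 in 3-inhibitor libraries.

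Genes with a profile most like that of a keratin were found by the distance between log2 values over the 6 libraries. Each gene was centred on its own mean. The 10199 genes considered had a mean of at least 100 normalized counts and a symbol other than a placeholder, such as a Gm number. With 2 groups, this distance rests largely on the difference in fold change. A fold near that of the keratin was thus part of the selection. Nearest to Krt16 were Teddm3 (distance 0.39), Sprr2g (0.56), the protease inhibitor gene Spink5 (0.58), Ly6g6c (0.62) and Ly6d (0.63). Nearest to Krt13 were the kallikrein gene Klk8 (0.04), H60c (0.06), the quinone reductase gene Nqo1 (0.13), Tcim (0.17) and Aif1l (0.20). Krt4 lay nearest to Creb5 (0.07), Gstp2 (0.08), Sugp2 (0.08), Ankzf1 (0.09) and Enkd1 (0.09). Klk8 stood at 730.1 ± 13.0 and 166.2 ± 11.3 normalized counts in the UK-5099 and 3-inhibitor groups (SD, n = 3), and Teddm3 at 662.7 ± 26.5 and 42.1 ± 1.10.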

How the data were processed

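RNA of 6 samples, 3 with UK-5099 and 3 with the 3 inhibitors, was sequenced. Per the labels, libraries were made from total RNA with the VAHTS Universal V8 kit. HISAT2 2.1.0, DESeq2 1.36.0 and the build GRCm39 are listed, without roles, per the submitters' processing notes. The sources used here name no read counter or annotation. The deposited values are in a unit other than plain counts: as the values show, the authors took log2 of read counts scaled by 1 size factor for each library, and cells at 0 hold a text mark. They were raised back to normalized counts. Of 57107 entries, 359 repeated a gene identifier with the same values and were dropped. Reads were recovered from the step of each library (99.987% to 99.992% of nonzero values within 0.02 of a whole number). Of 2693 genes without a symbol, 43 found one by identifier in a reference table.

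Genes whose mean reached 10 normalized counts entered a two-sided limma-trend test (limma 3.58.1, R 4.3.3) without covariates on log2(normalized count + 1), with Benjamini-Hochberg adjustment over all genes tested and a threshold of 0.05. The plan also held a test for raw counts, which the table does not hold. Ratios and shares were compared by exact permutation over libraries. The limma test was also run on simulated data, and its outcome there is not reported here. All 9 keratins are named. Of each gene list, up to 4 called genes with the smallest adjusted p and genes against the list's direction were named, and further genes were picked with their values in view. A gene of the wound list is not reported here by name. The keratins and the lists were chosen with earlier results of these data known. Alternatives were pseudocounts of 0.5 and 5, no low filter, a minimum mean of 50, upper-quartile rescaling, median centring, limma-voom on recovered reads, a replicate block and each library left out. Python 3.11.15, pandas 2.3.3, numpy 2.4.6 and matplotlib 3.10.9 were used. Transcript lengths and shared windows come from GENCODE M21 and promoters from RefSeq, both on GRCm38, and no coordinates of the deposited table were used.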

Additional observations from a re-analysis of the deposited data

How the results depend on the processing

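Krt16, Krt6a, Krt6b, Krt13, Krt78 and Krt80 kept their direction and their call in all 14 alternatives, with log2 fold changes from 4.12 to 4.26, 2.39 to 2.52, 3.38 to 3.59, 2.04 to 2.15, 1.998 to 2.26 and -0.91 to -0.77. The call of Krt4 was lost in 4 alternatives, as given above, with log2 fold changes from 0.13 to 0.30. Krt10 passed in none of them and changed sign without UK-5099 replicate 3 (0.073) and without 3-inhibitor replicate 1 (0.011), with a range from -0.21 to 0.073 over the libraries left out. Leaving out each library in turn gave 6 to 7 called keratins, 5 to 6 of them higher and 1 lower, and 7351 to 9126 called genes. The Krt4 to Krt13 difference then ran from -2.01 to -1.83, the Krt6 to Krt16 difference from -1.58 to -1.50, the Krt1 to Krt10 difference from 0.20 to 0.91 and the difference in keratin share from 15.5 to 15.8 percentage points. With Krt5 and Krt14 taken out of the keratin total, that difference was 27.1 points. The labels give both groups replicates 1 to 3 without saying that a number marks a shared animal or day. The numbers were therefore not taken as pairs in the main test. Deviations of same-numbered libraries correlated at -0.017, 0.12 and -0.089, and 2 of 6 libraries, both of replicate 2, correlated best with their own number. With 3 libraries a group, this cannot tell whether the numbers mark pairs. With the replicate number as a block, 8423 genes were called and 7 of the 9 keratins, including Krt4 (log2 fold change 0.22, adjusted p = 0.0233). Depth limits Krt1, at 1 to 4 reads a library, and Krt10, whose standard error was 0.19. The cause of the changes under median centring was not tested.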
